A study of Mus musculus with 8 samples.

Results

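Pomc, Agrp, Npy and Cartpt, the transcripts of 4 feeding neuropeptides, were examined in single ERα neurons of the ventrolateral part of the ventromedial hypothalamus (vlVMH). They were taken by gene name from the expression tables of 8 neurons, and a gene missing from a table counts as 0. They are 4 of the 16583 genes listed in any of the 7 neurons used for the class comparison, and all 4 were listed in all 8 neurons. The neurons came from female ERα-ZsGreen mice on a C57BL6/J background, in which the mouse ERα promoter drives the green fluorescent reporter, and all of them therefore carried the transgene. Each neuron was recorded in current clamp while extracellular glucose went from 5 mM to 1 mM and back, and was then collected by hand. GE (glucose-excited) neurons 1, 4, 6 and 8 hyperpolarized and fired less at low glucose. GI (glucose-inhibited) neurons 2, 3, 5 and 7 depolarized and fired more. The study states an age range for its mice as a whole, and none for the mice of these neurons. The neurons came from 2 mice, and no source says which neuron came from which mouse, so each class counts as 1 sample, and values of the neurons are given without a test.

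Pomc encodes pro-opiomelanocortin, the precursor of the melanocortins, which act on melanocortin receptors to lower food intake. Agrp encodes agouti-related protein, which opposes the melanocortins at the same receptors, and Npy encodes neuropeptide Y, which stimulates feeding through its own receptors. In the mouse arcuate nucleus, next to the vlVMH, Agrp and Npy are made together in one set of neurons and Pomc in another, and Cartpt, the precursor of the satiety peptide CART, is found in many Pomc neurons as well as in other hypothalamic cells.

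The stretches below are the coding sequence around the part of each precursor that gives the peptide its action or its end, taken from GENCODE vM21 on GRCm38. Pomc (ENSMUSG00000020660) lies on the plus strand at chr12:3954951-3960642, with 3 exons and 235 codons. Its coding sequence holds the codons for His-Phe-Arg-Trp, the core that melanocortin receptors recognise, at 3 places, and all 3 lie in 1 exon. The capitals mark these codons, the same 12 bases (CACTTCCGCTGG) at each place. The first stretch belongs to γ-MSH, the second to ACTH and α-MSH, and the third to β-lipotropin, with the first residues of β-endorphin at its end.
Pomc, codon 81, chr12:3959965-3960048: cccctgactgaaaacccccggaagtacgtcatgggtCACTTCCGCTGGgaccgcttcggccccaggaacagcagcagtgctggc
Pomc, codon 129, chr12:3960109-3960192: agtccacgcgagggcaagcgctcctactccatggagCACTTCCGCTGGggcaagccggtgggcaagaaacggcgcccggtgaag
Pomc, codon 193, chr12:3960301-3960384: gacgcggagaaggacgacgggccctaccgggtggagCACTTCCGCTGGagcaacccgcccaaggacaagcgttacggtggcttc

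Agrp (ENSMUSG00000005705) lies on the minus strand at chr8:105566698-105568298, with 5 exons and 131 codons. The capitals mark the codons for Arg-Phe-Phe, the tip of the loop with which the peptide binds melanocortin receptors. An antisense gene, Gm38250, overlaps Agrp, and since the library kit does not mark the strand, reads of both cannot be told apart.
Agrp, codon 110, chr8:105566780-105566860: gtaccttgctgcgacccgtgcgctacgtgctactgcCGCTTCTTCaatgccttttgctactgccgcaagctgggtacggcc

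Npy (ENSMUSG00000029819) lies on the plus strand at chr6:49822710-49829507, with 4 exons and 97 codons. The capitals mark the codons for Gly-Lys-Arg, where the precursor is cut and the glycine gives the amide at the end of the mature peptide. The stretch crosses an intron, so only its first and last bases are given by the positions.
Npy, codon 65, chr6:49823754-49827537: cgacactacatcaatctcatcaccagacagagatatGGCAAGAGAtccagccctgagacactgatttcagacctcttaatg

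Cartpt (ENSMUSG00000021647) lies on the minus strand at chr13:99898489-99900641, with 3 exons and 129 codons. The capitals mark the codons of pairs of basic residues, Lys-Arg in the first stretch and Lys-Lys in the second, after which the longer and the shorter CART peptide begin. The second stretch crosses an intron.
Cartpt, codon 80, chr13:99899960-99900037: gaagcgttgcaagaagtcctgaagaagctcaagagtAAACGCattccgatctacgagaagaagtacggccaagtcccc
Cartpt, codon 87, chr13:99899009-99900016: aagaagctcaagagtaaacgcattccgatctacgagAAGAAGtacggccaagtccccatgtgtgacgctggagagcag

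The 7 libraries of the class comparison held 6144126 to 14900568 reads, of which 48.2% (GE neuron 1) to 77.3% mapped. GI neuron 3 held 126914 reads, of which 40.3% mapped. It was left out by the study for its low read number, and its values are given beside the others. Levels are in FPKM (fragments per kilobase, scaled to library size), which sets genes on a scale per length, and come with the interval that the tables give for each neuron. These intervals describe 1 library each and do not cover differences between neurons, and amplified reads are not independent molecules. Whether they hold more than counting error is not stated. The depth they imply for GE neuron 6 ran from 0.338 to 0.590 of that of GE neuron 1 over the 4 transcripts. Fragment numbers read from them are therefore approximate. All 8 neuronal markers examined were listed in all 7 neurons, and of 8 vlVMH markers 3 reached 5 FPKM in a class. Esr1, which encodes ERα itself, was at 0 to 1.04 FPKM and listed in 4 of 7, and Nr5a1, a transcription factor that defines the VMH, was at 0 to 3.19 FPKM. Tac1, a peptide precursor of the vlVMH, was at 348 to 637 FPKM. Slc17a6, also of the vlVMH list, was at 17.7 to 30.8 FPKM in GE and 6.71 to 24.3 in GI neurons. Of 3 markers of GABA neurons, 2 reached 5 FPKM in a class, and all 3 were listed in all 7 neurons. Gad1 was at 24.5 to 37.3 FPKM in GE and 33.6 to 39.8 in GI neurons. Gad2 was at 25.9 to 36.3 and 26.0 to 34.0, and Slc32a1 at 0.887 to 7.07 and 1.18 to 12.3. The classes overlapped for all 3.

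Cartpt was the most abundant of the 4 transcripts in every neuron, and Agrp the least. Cartpt ranked between place 50 and place 97 among the genes listed in a neuron of the 7, Npy between 113 and 311, Pomc between 238 and 559, and Agrp between 347 and 664. Together the 4 transcripts made up 0.285% (GE neuron 1) to 0.549% (GI neuron 2) of all FPKM in a neuron. Levels in descending order were Cartpt, Npy, Pomc and Agrp in 6 of 7 neurons. The exception was GI neuron 5, where Pomc stood above Npy with overlapping intervals. Pomc and Agrp did not differ beyond their intervals in GE neuron 6 and GI neuron 2, and no other neighbours in the order overlapped in the 7 neurons.

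**Figure D1:**
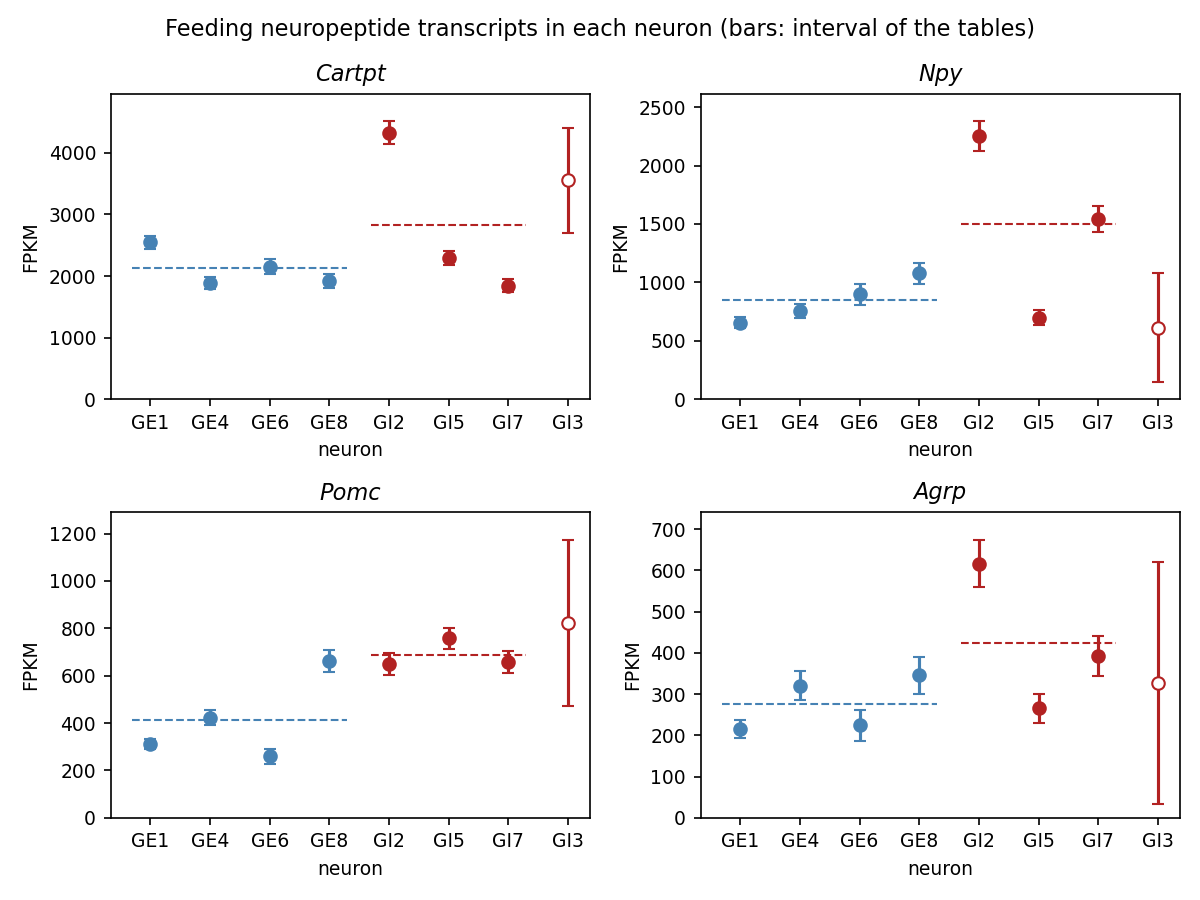
FPKM (linear axis from 0) of each transcript in each neuron, GE in blue and GI in red, with the interval of the tables as bars, dashed lines at the class means of 4 GE and 3 GI neurons, and GI neuron 3 as an open circle. GI neuron 2 is the highest point for Npy (2251) and Agrp (616) and, with GI neuron 3 set aside, the highest by far for Cartpt (4324), whereas Pomc is lowest in GE neurons 1, 4 and 6.

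In GE neurons 1, 4, 6 and 8, in this order, Pomc was at 312 FPKM (interval 292 to 332), 422 (390 to 453), 260 (228 to 291) and 662 (615 to 709). For GI neurons 2, 5 and 7 the levels of Pomc were 650 FPKM (605 to 695), 759 (714 to 803) and 659 (612 to 706). GE neurons 1, 4 and 6 were below every GI neuron with no overlap of intervals, and GE neuron 8 was level with GI neurons 2 and 7. The class mean was 414 FPKM in GE and 689 in GI neurons, a log2 ratio of GE over GI of -0.73 (-0.82 to -0.65 from the intervals alone). Without GE neuron 8 the ratio was -1.06. Pomc was the transcript of the 4 whose levels were most alike within the GI class, where they lay within 650 to 759 FPKM.

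Agrp stood, in the same order of neurons, at 216 FPKM (194 to 238), 321 (285 to 357), 224 (186 to 263) and 345 (299.8 to 391) in the GE class. Its levels in the GI class were 616 FPKM (559 to 674), 266 (231 to 300.2) and 392 (344 to 440). GI neuron 2 stood above all other neurons, and GI neuron 5 had an interval that touched those of all 4 GE neurons. The class means were 277 FPKM in GE and 425 in GI neurons, a log2 ratio of -0.62 (-0.75 to -0.48), which was -0.25 without GI neuron 2.

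The Npy levels of GE neurons 1, 4, 6 and 8 were 656 FPKM (611 to 701), 755 (692 to 817), 898 (811 to 986) and 1078 (986 to 1170.0). Those of GI neurons 2, 5 and 7 were 2251 FPKM (2124 to 2378), 697 (634 to 760.1) and 1543 (1435 to 1651). GI neurons 2 and 7 were above every GE neuron, and GI neuron 5 was lower in level than all GE neurons but neuron 1. The class means were 847 FPKM in GE and 1497 in GI neurons, a log2 ratio of -0.82 (-0.91 to -0.74). The ratio was -0.40 without GI neuron 2 and -1.16 without GI neuron 5.

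Cartpt reached 2547 FPKM (2444 to 2650), 1885 (1790 to 1980), 2154 (2031 to 2278) and 1917 (1807 to 2026) in GE neurons 1, 4, 6 and 8. The corresponding values of GI neurons 2, 5 and 7 were 4324 FPKM (4138 to 4510), 2296 (2185 to 2406) and 1845 (1740 to 1950). The classes overlapped, with GI neuron 7 lowest of all and GI neuron 2 highest. The class means were 2126 FPKM in GE and 2821 in GI neurons, a log2 ratio of -0.41 (-0.46 to -0.35). Without GI neuron 2 the ratio changed its sign, to 0.038.

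In GI neuron 3 the values rested on far fewer fragments, about 22.0 for Pomc, 7.0 for Npy and 5.0 for Agrp as read from the intervals, against 270 to 1178, 419 to 1256 and 138 to 455 in the other neurons. Pomc was at 823 FPKM there (472 to 1174), Agrp at 328 (34.6 to 621), Npy at 613 (150 to 1077) and Cartpt at 3555 (2701 to 4409). The interval of Agrp in this neuron spanned the levels of all the other neurons, and that of Npy the levels of GE neurons 1, 4 and 6 and GI neuron 5. That of Pomc lay above GE neurons 1, 4 and 6, and that of Cartpt above every neuron but GI neuron 2.

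All 4 class ratios were on the side of the GI neurons, with a median log2 ratio of -0.68, against 0.02 over the 6990 genes at 5 FPKM or more in a class, of which 47.7% were higher in GI neurons. Without GI neuron 2, 3 of 4 were on that side and the median was -0.33. None of the 4 was past 2-fold in either direction, against a background of 2.92% of the 6990 genes with GI higher and 3.71% with GE higher. In both directions together it was 6.62%, and 3.28% of genes at 20 FPKM or more, a level that the 4 transcripts exceed. Of the 6990 genes, 4.72% had a log2 ratio at or below that of Npy, 5.91% for Pomc, 8.24% for Agrp and 15.0% for Cartpt. These positions are a description. In none of the 4 did the classes part completely, against 2.02% of genes with every GI neuron above every GE neuron and 2.68% with the reverse. Of the 12 pairs of a GI with a GE neuron, the GI neuron was higher in 10 for Pomc, 10 for Agrp, 9 for Npy and 7 for Cartpt. The pairs share neurons and are given as a description.

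**Figure D2:**
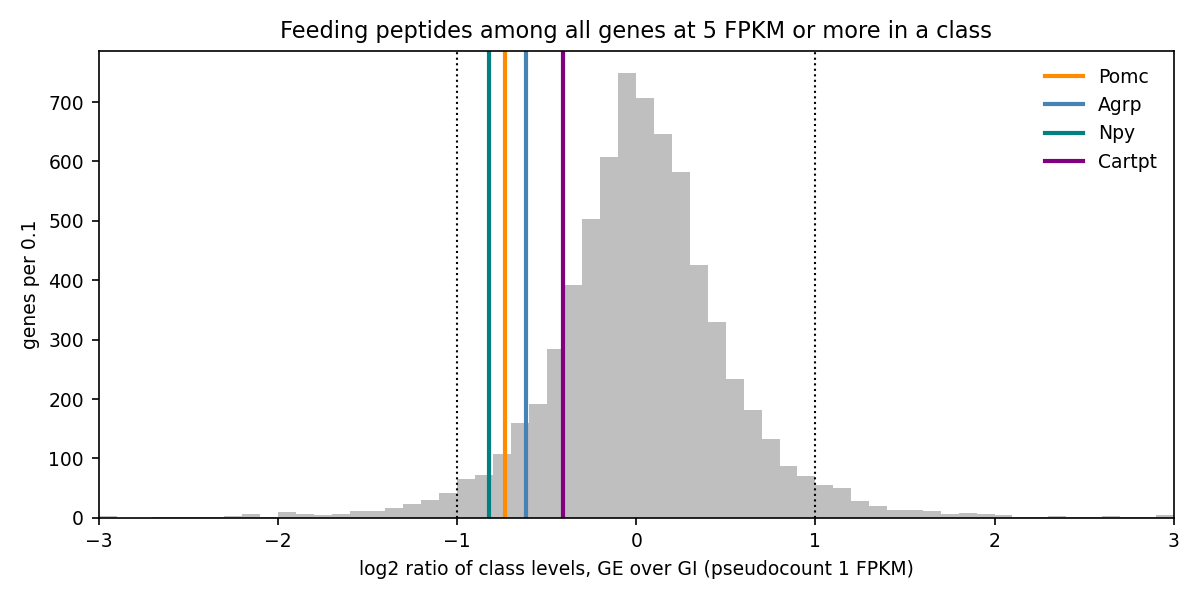
Number of genes per 0.1 of the log2 ratio of class levels, GE over GI, among 6990 genes, with the axis shown from -3 to 3 and 2-fold marked by dotted lines. The coloured lines of Npy (-0.82), Pomc (-0.73), Agrp (-0.62) and Cartpt (-0.41) all stand left of the centre and inside the 2-fold lines.

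The spread of the transcripts over the neurons was larger than that of most genes of a like level. The highest of the 7 neurons was 3.43 times the lowest for Npy, 2.92 times for Pomc, 2.86 times for Agrp and 2.34 times for Cartpt. Among genes listed in all 7 neurons with a mean within 2-fold of the transcript, these spreads were at percentile 96.6 (of 232 genes), 90.8 (of 368), 89.0 (of 481) and 76.3 (of 131), and the median spread of such genes was 1.81 to 1.87. GI neuron 2 was the highest neuron for Npy, Agrp and Cartpt. Without it they ran from 656 to 1543, 216 to 392 and 1845 to 2547 FPKM, and those spreads were not set against other genes. The intervals of a transcript did not overlap in 18 of the 21 pairs of neurons for Pomc, 17 for Cartpt, 16 for Npy and 13 for Agrp.

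Ratios between transcripts within a neuron do not depend on the scaling of its library. Npy over Agrp was the steadiest of the 6 ratios among the 4 transcripts, at 2.35 to 4.0 over the 7 neurons, a 1.70-fold span. Ratios to genes outside the 4 were not computed. In GE neurons 1, 4, 6 and 8 the ratio was 3.04 ± 0.37, 2.35 ± 0.33, 4.0 ± 0.79 and 3.12 ± 0.49, where ± is the width that the intervals of both genes give. In GI neurons 2, 5 and 7 it was 3.65 ± 0.40, 2.63 ± 0.42 and 3.94 ± 0.56. The classes overlapped in this ratio. Cartpt over Pomc, whose peptides are found together in many arcuate neurons, ran from 2.80 to 8.30 (a 2.96-fold span), at 2.90 to 8.30 in GE and 2.80 to 6.66 in GI neurons. Npy over Pomc had the widest span, 3.77-fold, from 0.919 in GI neuron 5 to 3.47 in GI neuron 2.

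**Figure D3:**
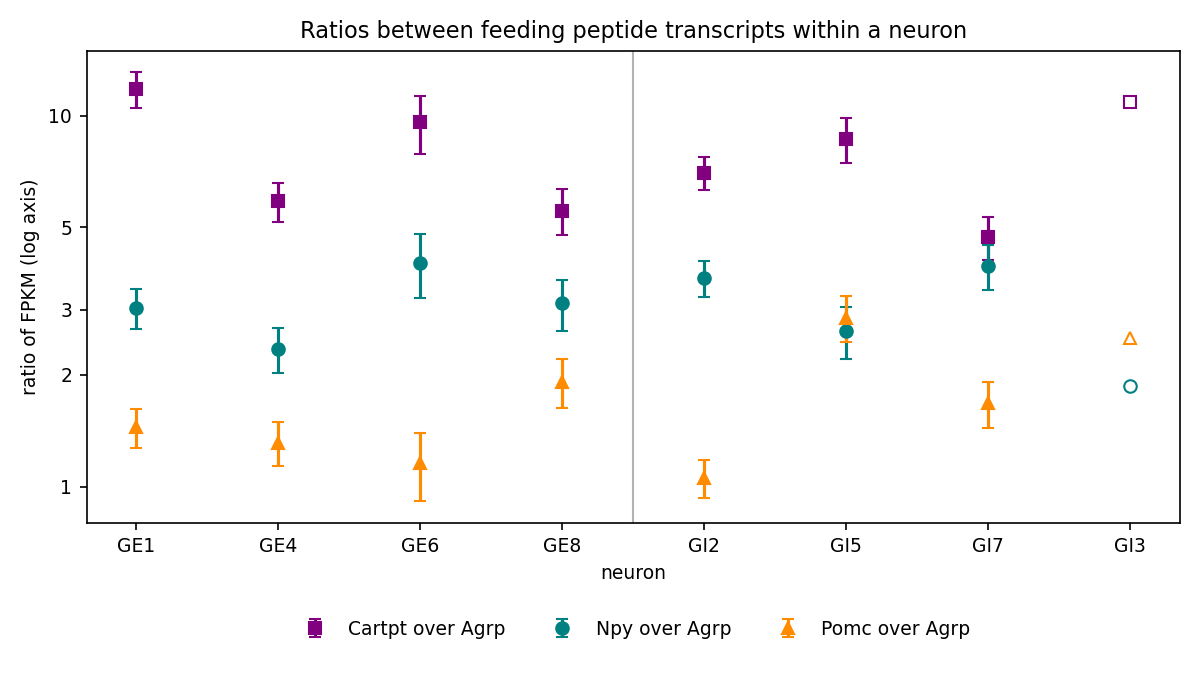
Ratio of FPKM within a neuron (log axis) for Cartpt, Npy and Pomc over Agrp, with bars from the intervals of both genes, and GI neuron 3 with open symbols and no bars. Npy over Agrp stays between 2.35 and 4.0 in the 7 neurons, whereas Cartpt over Agrp spans 4.71 to 11.8 and Pomc over Agrp 1.05 to 2.86.

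Agrp and Npy also followed each other in level over the neurons. The Pearson r of their log2 levels over the 7 neurons was 0.90 (Spearman rho 0.89), and each was at place 16 among the 4348 genes compared with the other by likeness. The value was 0.75 without GI neuron 2. These are 7 points that share the library preparation and differ in depth, so the correlations are given as a description. Pomc had an r of 0.64 with Agrp (0.52 to 0.84 with 1 neuron left out), 0.45 with Npy (from 0.31 without GE neuron 1 to 0.74 without GI neuron 5) and 0.11 with Cartpt, which became -0.40 without GI neuron 2. Cartpt had an r of 0.52 with both Agrp and Npy, which became -0.89 and -0.73 without GI neuron 2.

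The gene with the most similar pattern to Agrp was Leo1, a subunit of the Paf1 transcription elongation complex (r 0.96), followed by 1700009P17Rik, Slc25a42, Rras and Crip1. For Npy it was 1110008F13Rik (r 0.98), followed by 1700009P17Rik, Dtd1, 2900073G15Rik and Nol3. For Pomc it was Dpf2, a subunit of a chromatin remodelling complex (r 0.95), followed by Nt5dc2, Tnfrsf12a, C1galt1c1 and 5730494N06Rik. For Cartpt it was Rab9, a small GTPase (r 0.96), followed by Snrpg, Dnajc19, Atp5g1 and a transcript of the mitochondrial genome.

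Among the receptors of these peptides and their modulators, 9 of 12 genes were found in the tables and 3 of them reached 5 FPKM. Npy1r, the Y1 receptor of neuropeptide Y, had levels of 7.96 FPKM (6.23 to 9.69), 7.37 (5.05 to 9.68), 8.12 (5.13 to 11.1) and 7.26 (4.58 to 9.94) in GE neurons 1, 4, 6 and 8. It had 15.7 FPKM (11.9 to 19.4), 14.6 (11.3 to 18.0) and 14.2 (10.3 to 18.0) in GI neurons 2, 5 and 7. Every GI neuron was above every GE neuron in level, as in 2.02% of the 6990 genes, with 2.68% parting the other way. Npy1r comes from lists chosen with earlier results of these data known. Only the intervals of GE neuron 6 and GI neuron 7 overlapped for it. The log2 ratio was -0.87, and the lowest GI neuron was 1.52 to 1.80 times the highest GE neuron under all alternatives run, including GI neuron 3, which held 13.7 FPKM on less than 1 fragment.

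Npy2r, the Y2 receptor, was at 2.60, 1.74, 1.63 and 1.20 FPKM in GE neurons 1, 4, 6 and 8 and at 7.19, 3.41 and 2.22 FPKM in GI neurons 2, 5 and 7. GI neurons 2 and 5 were above every GE neuron in level, and GI neuron 7 was below GE neuron 1. Only GI neuron 2 (interval 4.72 to 9.66) was above the GE neurons beyond the intervals. That of GI neuron 5 (1.76 to 5.06) overlapped the interval of every GE neuron. Npy5r was at 0 to 3.51 FPKM in GE and 0.312 to 2.95 in GI neurons. Mc4r, the melanocortin receptor through which α-MSH lowers food intake, was at 0 to 0.0192 FPKM in GE neurons, at 0.958 and 1.46 FPKM in GI neurons 2 and 5 and not listed in GI neuron 7. Mc3r, the other melanocortin receptor of the brain, was at 0.633 to 4.75 FPKM in GE and 0 to 2.29 in GI neurons. Mrap2, an accessory protein of melanocortin receptors, was at 11.4 to 17.6 FPKM in GE and 8.64 to 14.3 in GI neurons. Sdc3, a proteoglycan that takes part in melanocortin signalling, was at 3.54 to 8.20 and 1.16 to 6.09 FPKM. The classes also parted for Atrn, the attractin gene, in the opposite direction and below 5 FPKM in both class means. The share of genes that part was not computed below 5 FPKM. Atrn was at 2.39, 3.67, 3.25 and 5.39 FPKM in GE neurons 1, 4, 6 and 8 and at 1.08, 2.28 and 2.05 in GI neurons 2, 5 and 7, a log2 ratio of 0.74. The intervals of GI neurons 5 and 7 overlapped those of GE neurons 1, 4 and 6.

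**Figure D4:**
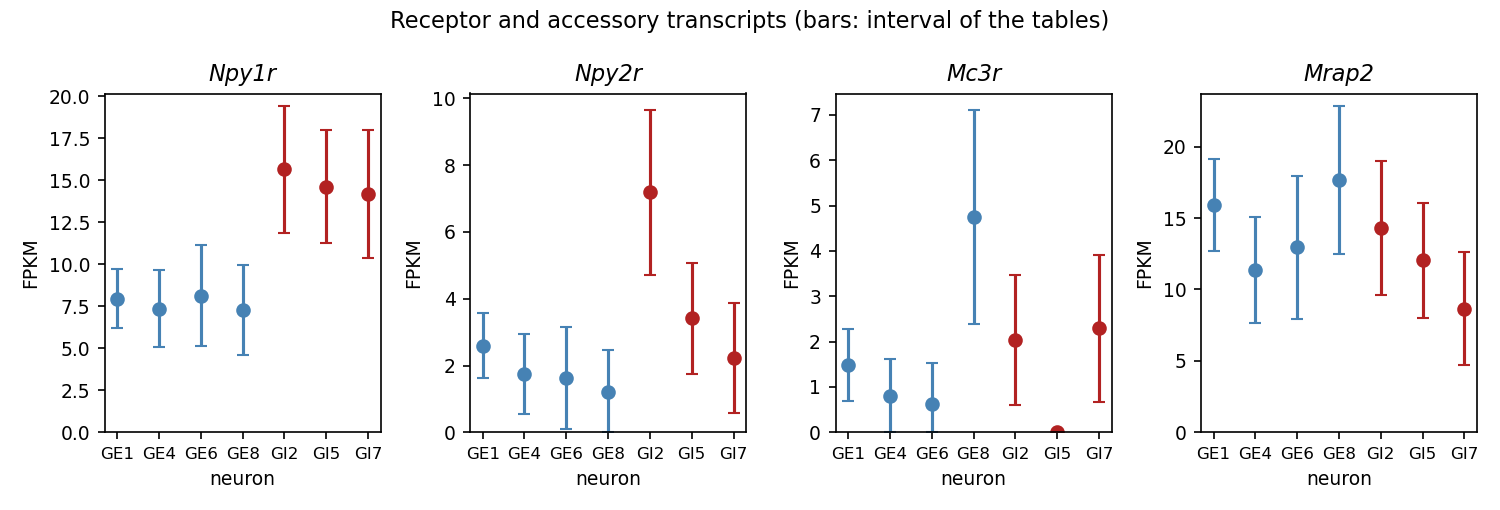
FPKM (linear axes from 0) of Npy1r, Npy2r, Mc3r and Mrap2 in the 7 neurons, GE in blue and GI in red, with the interval of the tables as bars. The GI neurons are at 14.2 to 15.7 FPKM for Npy1r, above the 7.26 to 8.12 of the GE neurons, while the classes overlap in the other 3 panels.

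All 7 genes for processing of peptide precursors reached 5 FPKM in a class, 4 with a higher mean in GI and 3 in GE neurons, none past 2-fold and none with the classes apart. Pcsk1, the convertase that cuts Pomc to ACTH, was at 8.05 to 13.6 FPKM in GE and 5.31 to 25.8 in GI neurons. Pcsk2, which cuts further to the melanocortins, was at 18.6 to 34.7 and 8.65 to 41.5. Cpe, which trims basic residues from the cut peptides, was at 240 to 597 FPKM in GE and 197 to 462 in GI neurons. Pam, the amidating enzyme, was at 11.5 to 31.8 and 13.1 to 26.1.

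Among receptors of hormones and transmitters on feeding neurons, only Lepr, the leptin receptor, reached 5 FPKM of 6 examined, at 22.2 to 44.9 FPKM in GE and 42.9 to 60.3 in GI neurons, with overlap. Of 9 transcription factors of arcuate feeding neurons, 8 were found and 3 passed 5 FPKM. Isl1, which is needed for Pomc expression, was at 13.8 to 36.9 FPKM in GE and 20.2 to 29.9 in GI neurons, and Nkx2-1 at 4.57 to 17.1 and 4.64 to 12.5. Stat3, which carries the leptin signal, was at 5.80 to 7.64 and 6.67 to 9.52 FPKM. Bsx, a factor of Agrp and Npy neurons, was listed in 2 of 7 neurons.

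Several peptide precursors of other arcuate and hypothalamic neurons were listed beside the 4 transcripts in every neuron, whereas Pdyn, Hcrt and Crh were each listed in 5 of 7. Sst was at 5591 to 7450 FPKM in GE and 5184 to 6999.6 in GI neurons, Tac2 at 1319 to 2753 and 2225 to 3844, Kiss1 at 567 to 1347 and 802 to 1674, and Gal at 557 to 732 and 422 to 894. Ghrh was at 410 to 1309 and 393 to 899 FPKM. Of the 7 genes of this list at 5 FPKM or more, 3 had a higher mean in GI and 4 in GE neurons, and in none did the classes part. Tac2 and Kiss1, the neurokinin B and kisspeptin precursors that share a set of arcuate neurons, had an r of 0.92 and 0.93 with Agrp over the 7 neurons. The r of Npy with Agrp was 0.90.

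The melanin-concentrating hormone precursor Pmch, a marker of the lateral hypothalamus, was at 1529 to 2278 FPKM in GE neurons and at 6234, 2307 and 1642 in GI neurons 2, 5 and 7. Avp and Oxt, of the magnocellular nuclei, were at 50.2 to 132 and 75.2 to 158 FPKM in GE and at 72.3 to 241 and 43.2 to 485 in GI neurons. Of 9 peptides of other nuclei, 8 reached 5 FPKM, 6 with a higher mean in GI and 2 in GE neurons. In class means, Sst, Tac2 and Pmch stood above Npy, Pomc and Agrp in both classes.

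**Figure D5:**
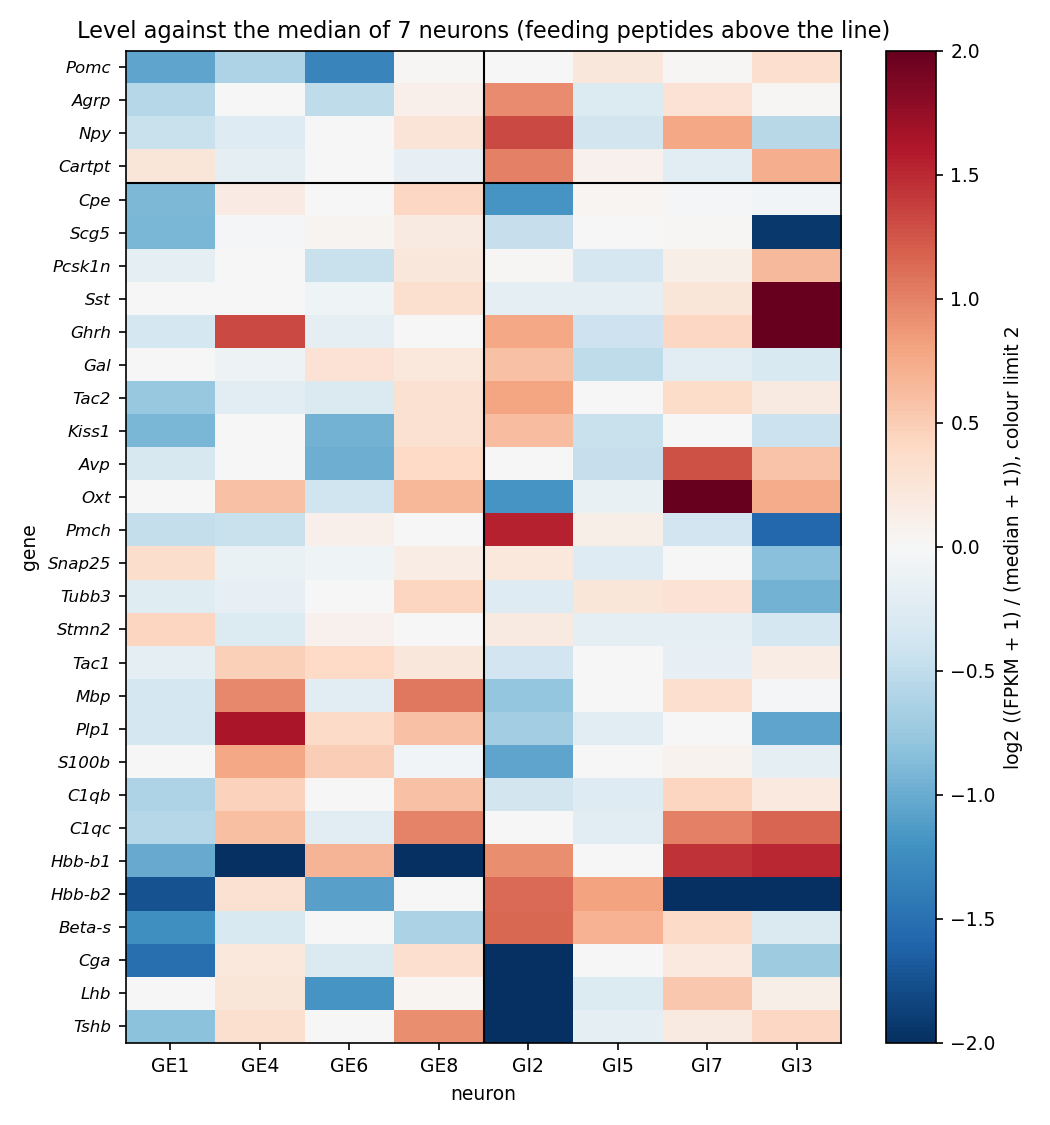
Log2 of the level against the median of the 7 neurons (colour, limited at 2 in both directions) for Pomc, Agrp, Npy and Cartpt above the line and, below it, for the other genes of the lists at a mean of 100.0 FPKM or more, with GE neurons left and GI neurons right of the vertical line and GI neuron 3 last. GI neuron 2 is red for Agrp, Npy, Cartpt, Ghrh, Gal, Tac2, Kiss1 and Pmch, and also for the red blood cell markers Hbb-b1, Hbb-b2 and Beta-s. It is deep blue for Cga, Lhb and Tshb.

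Some markers of other cells and of neurons were at the end of their range in GI neuron 2, which was highest in Npy, Agrp and Cartpt. Cga, the shared subunit of pituitary glycoprotein hormones, was at 1626, 5356, 3756 and 5801 FPKM in GE neurons 1, 4, 6 and 8 and at 641, 4612 and 5270.3 in GI neurons 2, 5 and 7. It was thus lowest in GI neuron 2, and its r with Cartpt was -0.96 over the 7 neurons and -0.86 without GI neuron 2. The neuronal markers Syt1 and Rbfox3 and the glutamate transporter Slc17a6 of vlVMH neurons were also lowest there, at 18.7, 8.30 and 6.71 FPKM. Their r with Cartpt was -0.93, -0.90 and -0.81, and -0.67, -0.48 and 0.14 without GI neuron 2. Of the other neuronal markers, Tubb3 and Map2 were also lowest in GI neuron 2, and Nefl and Eno2 were inside their range. Snap25 and Stmn2 were at 350 and 437 FPKM there, below GE neuron 1 only. Rax, a tanycyte marker, was highest there of the 7 neurons, at 28.0 FPKM, with an r of 0.90 with Agrp and 0.82 without GI neuron 2. The other tanycyte and ependymal markers were not highest there. Ccdc153 and Tmem212 were lowest of the 7 neurons, at 2.08 and 7.14 FPKM, Col23a1 was inside its range at 5.85, and Foxj1 was at 0. The summed level of all 8 neuronal markers was 941 to 1192 FPKM in GE and 911 to 1017 in GI neurons, with GI neuron 2 at 996. Of 9 pituitary markers, 5 were found, 3 of which (Cga, Lhb and Tshb) were at 5 FPKM or more. Below it, the classes overlapped for Pitx1 and parted for Tbx19, at 0 to 0.623 FPKM in GE and 1.30 to 2.68 in GI neurons. Tbx19 rested on about 10.5, 6.0 and 5.0 fragments in GI neurons 2, 5 and 7. Its interval in GE neuron 4 overlapped those of the GI neurons. How many genes part below 5 FPKM was not computed. The summed level of the list was 1878 to 6228 FPKM in GE and 675 to 5682 in GI neurons. Red blood cell markers, 4 of 6 found, summed to 947 to 2240 FPKM in GE and 2906 to 5054 in GI neurons, with no overlap and GI neuron 2 highest. Of the 4, only Beta-s had its classes apart, at 576 to 1348 FPKM in GE and 1761 to 2975 in GI neurons. Every GI neuron was above every GE neuron in 2.02% of the 6990 genes. The classes overlapped for Hbb-b1, Hbb-b2 and Alas2. Of the markers found, none was at 0 in all 7 neurons. Astrocyte markers, all 7 found, summed to 366 to 663 FPKM in GE and 202 to 436 in GI neurons. Oligodendrocyte markers, all 7 found, summed to 481 to 1147 and 324 to 644, with GI neuron 2 lowest in both sums. Of the astrocyte markers only Aldh1l1 had its classes apart, at 4.21 to 11.3 FPKM in GE and 0 to 4.08 in GI neurons. Its interval in GE neuron 8 overlapped those of GI neurons 5 and 7. Every GE neuron was above every GI neuron in 2.68% of the 6990 genes. Microglia markers, all 7 found, summed to 373 to 920.1 and 435 to 814. Endothelial markers stayed at or under 17.6 FPKM in sum, and tanycyte and ependymal markers were at 32.9 to 55.2 and 43.1 to 72.2. The part of these markers' cells in the levels of the 4 transcripts was not tested.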

How the data were processed

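Single neurons were collected after patch clamp, and cDNA was made and amplified with SMART-Seq v4. The authors deposited FPKM values per gene and neuron with an interval whose level is not stated. Neither the tool nor the annotation or build behind them is stated. The submitters' processing notes name Trim Galore 0.4.1, STAR 2.5.3a, featureCounts 1.6.0 and DESeq2, and no gene counts were used here. The fraction of reads mapped and the number of reads of each library are those deposited by the authors in a quality table. The authors' means and tests in that table were not used.

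Of the gene names, 110 stood at more than 1 locus and 24 had become dates; without them 16599 genes remained. The class level is the mean FPKM, the ratio log2((GE+1)/(GI+1)), and the filter 5 FPKM in either class. Intervals of a ratio combine those of the neurons. Fragments behind a value were read from its interval, taking the upper arm as 2 SD of counting error. Likeness was compared over genes listed in all 7 neurons at a mean of at least 10 FPKM, and the 5 most alike genes are named. Other genes named are those of the fixed lists at 5 FPKM or more in a class, and receptors and defining genes below it. The members and lists (16 lists, 116 genes) were chosen with earlier results of these data known. Gene positions and coding stretches come from GENCODE vM21 on GRCm38, whose positions differ from those of the tables. Alternatives were class medians, inclusion of GI neuron 3, omission of each neuron in turn, pseudocounts of 0.1 and 5, no filter or 20 FPKM, and scaling without mitochondrial genes, without the 100 highest genes, or by the median of ratios. Python 3.11.15, numpy 2.4.6, pandas 2.3.3 and matplotlib 3.10.9 were used. The calculation of the ratio was checked on simulated data with known folds and counting error only. Those data hold no spread between neurons, so the check does not bear on how firm the class ratios are.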

Additional observations from a re-analysis of the deposited data

Results flagged for a closer look

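GI neuron 3, which the class comparison does not use, held all 4 transcripts above the level of 3 fragments in its shallow library. Pomc was at 823 FPKM, Agrp at 328, Npy at 613 and Cartpt at 3555.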

How the results depend on the processing

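No alternative made a transcript higher in GE neurons except for Cartpt when GI neuron 2 was left out. With each neuron left out in turn, the log2 ratio of GE over GI ran from -1.06 to -0.57 for Pomc, from -0.86 to -0.25 for Agrp, from -1.16 to -0.40 for Npy and from -0.64 to 0.038 for Cartpt. The extremes came without GE neuron 8 and GE neuron 6 for Pomc, without GI neurons 5 and 2 for Agrp and Npy, and without GI neurons 7 and 2 for Cartpt. Without GE neuron 8 the classes parted for Pomc, and without GI neuron 5 for Agrp and Npy. Each time the neuron left out was the only neuron overlapping the other class. The share of all genes that part under these omissions was not computed. Genes 2-fold or more higher in GI neurons made up 4.41% without GE neuron 8 and 5.00% without GI neuron 5, against 2.92% with all 7 neurons. With the median of the neurons the ratio was -0.84 for Pomc and -0.17 for Cartpt. With GI neuron 3 added it was -0.59 for Npy and -0.50 for Cartpt. Scaling without mitochondrial genes gave -0.35 for Cartpt, and scaling by the median of ratios gave -0.82 for Pomc, with the classes apart for Pomc. The share of all genes apart under that scaling was not computed either. The share of genes past 2-fold in either direction was 6.62%, with 3.28% at 20 FPKM or more, and 7.60% to 10.7% with a neuron left out. Without GI neuron 7 it was 10.7%. No paired analysis was possible, because no source says which neurons share a mouse. Since the neurons are not assigned to the 2 mice, class and mouse cannot be told apart, and depth limits the low receptors most.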
